A study of Mus musculus with 2 samples.

Results

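The 10 genes described here encode proteins that neutrophils store in granules or in the cytosol. They are S100a8 and S100a9, which form calprotectin, Ngp, Camp, Lcn2 and Ltf of the specific granules, and Mpo, Elane, Prtn3 and Ctsg of the primary granules. All 10 had a value among the 16504 genes measured, and each was read by 1 array feature. They were chosen with their ratios on these same arrays known, so their values are given as a description with no test. The study compared thymocytes, the T cell precursors that mature in the thymus, of wild-type mice with those of null mice, which lack the gene under study. The labels give no strain, age or sex of the mice, and name thymus as the source while describing thymocytes. For each genotype the RNA of 3 mice was mixed into 1 pool. Both pools were labelled and hybridised together on 2 arrays, with null in Cy5 on one (the null-Cy5 array) and in Cy3 on the other (the null-Cy3 array). Since both arrays hold the same pools, each SD given is technical (n = 2 arrays), and variation between mice was not measured.

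Neutrophils make their granules in sequence. Primary granules, filled at the promyelocyte stage, carry myeloperoxidase and serine proteases, while specific granules, filled later, carry lactoferrin, lipocalin 2 and the cathelicidin precursor. Calprotectin, a calcium- and zinc-binding heterodimer, is abundant in the cytosol of mature neutrophils. The thymus normally holds few granulocytes. The deposited ratios carry no expression level, so whether neutrophils were present in either pool could not be checked from the level of their markers. In a pooled bulk sample, fewer cells of a type and less RNA per cell cannot be told apart.

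Values are log2 ratios of null over wild type, where 0 means equal and 0.58 means 1.5-fold higher in the null pool. The file does not state which genotype is the numerator, so the direction is a likely one, inferred from the dye labels of the null-Cy5 array and from the minus sign that every zero of the null-Cy3 column carries. To be called, a gene had to differ 1.5-fold or more, the same way, on each array. By that rule 4 of the 10 genes were higher and none was lower, while 0.412% of all genes were higher and 1.11% lower. All 10 genes lay above 0 on both arrays, as did 25.0% of all genes. Since these ratios chose the genes, nothing is read from either share. The median of the 10 genes was 0.32, with 0.29 on the null-Cy5 array and 0.51 on the null-Cy3 array, against 0.00093 over all genes.

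**Figure D1:**
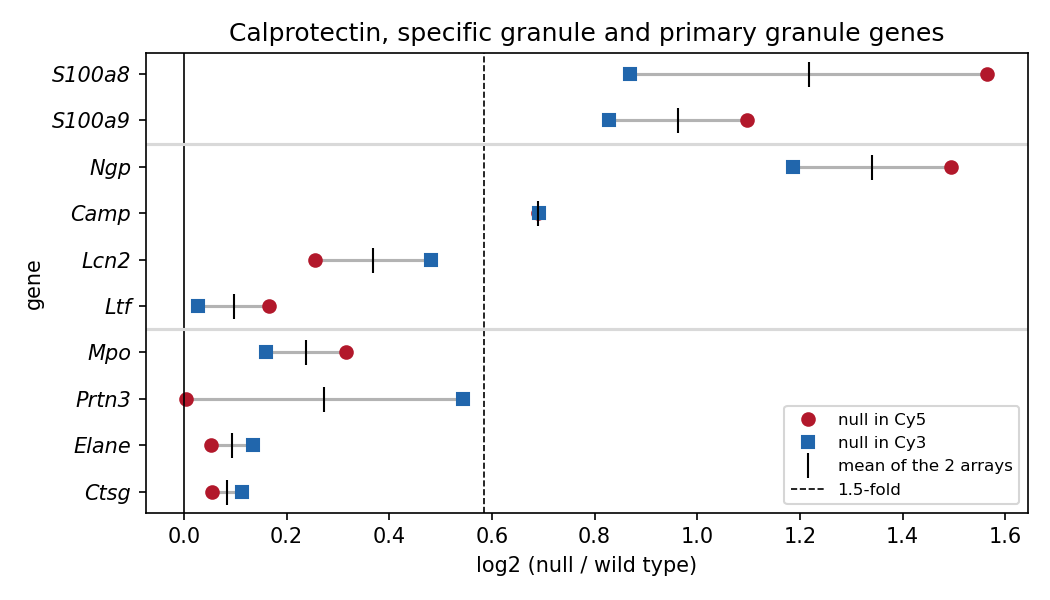
Log2 ratio of null over wild type (x axis) for the 10 genes (y axis), grouped by grey lines into calprotectin, specific granule and primary granule genes. Circles show the null-Cy5 array, squares the null-Cy3 array, bars their mean, and the dashed line 1.5-fold. S100a8, S100a9, Ngp and Camp lie past the line on both arrays, and the other 6 genes lie between 0 and the line on both.

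The stretches of 250 bases before the annotated start of 6 of these genes are printed because 4 were higher and because Elane and Mpo, of the primary granules, were not. They come from RefSeq on GRCm38.p6, read 5′ to 3′ on the strand of the gene. All 10 genes matched an entry by symbol. Capitals mark matches, on either strand, to TTGCNNAA, the form bound by C/EBP factors, or to GAGGAAG, the purine-rich form bound by PU.1.
Ngp (chr9:110419558-110419807, + strand): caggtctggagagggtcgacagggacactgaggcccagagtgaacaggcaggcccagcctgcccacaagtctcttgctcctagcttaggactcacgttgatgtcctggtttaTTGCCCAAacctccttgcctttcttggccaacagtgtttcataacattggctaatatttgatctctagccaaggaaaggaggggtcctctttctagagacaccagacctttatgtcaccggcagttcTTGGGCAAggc
Camp (chr9:109849457-109849706, - strand): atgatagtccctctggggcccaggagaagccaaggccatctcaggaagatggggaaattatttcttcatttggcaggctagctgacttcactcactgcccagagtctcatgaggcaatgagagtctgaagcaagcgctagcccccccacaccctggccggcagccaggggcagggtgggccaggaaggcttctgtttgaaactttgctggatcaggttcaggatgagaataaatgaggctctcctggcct
S100a8 (chr3:90668821-90669070, + strand): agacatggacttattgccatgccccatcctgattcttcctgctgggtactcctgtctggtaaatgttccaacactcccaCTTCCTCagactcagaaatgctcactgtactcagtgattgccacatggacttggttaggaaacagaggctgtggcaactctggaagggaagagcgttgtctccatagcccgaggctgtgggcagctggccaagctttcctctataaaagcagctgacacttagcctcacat
S100a9 (chr3:90695722-90695971, - strand): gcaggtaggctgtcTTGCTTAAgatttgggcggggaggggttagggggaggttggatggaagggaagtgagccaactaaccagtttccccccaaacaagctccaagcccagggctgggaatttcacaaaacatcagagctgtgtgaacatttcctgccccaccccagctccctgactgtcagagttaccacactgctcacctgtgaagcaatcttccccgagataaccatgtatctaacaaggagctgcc
Elane (chr10:79886062-79886311, + strand): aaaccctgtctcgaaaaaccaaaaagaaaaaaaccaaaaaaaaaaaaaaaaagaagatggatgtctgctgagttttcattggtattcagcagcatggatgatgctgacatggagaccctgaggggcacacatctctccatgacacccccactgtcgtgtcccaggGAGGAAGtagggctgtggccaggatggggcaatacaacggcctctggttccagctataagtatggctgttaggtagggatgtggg
Mpo (chr11:87793534-87793783, + strand): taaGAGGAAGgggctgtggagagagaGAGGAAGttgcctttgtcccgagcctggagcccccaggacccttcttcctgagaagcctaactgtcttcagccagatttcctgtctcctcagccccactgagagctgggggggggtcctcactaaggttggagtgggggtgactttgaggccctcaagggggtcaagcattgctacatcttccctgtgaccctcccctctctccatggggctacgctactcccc

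Both motifs were chosen after matches to these and other motifs had been viewed, so the counts are descriptions. TTGCNNAA lay in 4 of the 6 calprotectin and specific granule genes, which were S100a9, Ngp, Ltf and Lcn2, and in 0 of the 4 primary granule genes. It lay in 9.56% of all 32851 promoter windows of this length. GAGGAAG lay in all 4 primary granule genes and in S100a8 and Lcn2, against 10.6% of all windows. Ngp held 2 matches to TTGCNNAA, from 138 to 131 and from 11 to 4 bases before the start. In the Elane window, GAGGAAG lay from 85 to 79 bases before the start. Camp, which was called, held neither motif in this window, and Lcn2, which was not called, held both. Matches to the 2 motifs overlapped in none of the 10 windows.

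The calprotectin genes were both higher in the null pool. S100a8, which encodes the smaller subunit of calprotectin, stood at 1.57 on the null-Cy5 array and 0.87 on the null-Cy3 array. Its mean was 1.22 (SD 0.49), or 2.33-fold. S100a9, which encodes the partner subunit, stood at 1.10 and 0.83 on the same arrays. Its mean was 0.96 (SD 0.19), or 1.95-fold. S100a8 had the widest spread between the arrays of the 10 genes, and both calprotectin genes were further from 0 on the null-Cy5 array. The ranges of S100a8 and S100a9 over the 2 arrays overlapped.

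The specific granule genes were spread from the highest value of the 10 genes to one of the lowest. Ngp, a granule protein related to cathelicidins and cystatins, was 2.82-fold higher on the null-Cy5 array and 2.28-fold higher on the null-Cy3 array. Its mean was 1.34 (SD 0.22), or 2.53-fold, and it alone of the 10 reached 2-fold on both arrays, as 0.0424% of all genes did. Camp encodes the precursor of the antimicrobial peptide CRAMP, the mouse cathelicidin. Its ratio was 0.69 on each array (SD 0.0013), or 1.61-fold, and of the 10 genes it had the smallest difference between arrays. Lcn2, which binds bacterial siderophores and so withholds iron, stood at 0.26 and 0.48, with a mean of 0.37 (SD 0.16), and did not pass the rule. Ltf encodes lactoferrin, an iron-binding protein that is a defining content of specific granules. It stood at 0.17 and 0.03, with a mean of 0.10 (SD 0.10). Camp lay below both calprotectin genes and above Lcn2 on each array, and the ranges did not overlap. Ltf and Lcn2 did not overlap either.

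None of the 4 primary granule genes passed the rule, by which 0.412% of all genes were higher and 1.11% lower. With 4 genes, nothing is read from that count. The median of the 4 was 0.17. Mpo, which encodes the peroxidase that makes hypochlorous acid, stood at 0.32 on the null-Cy5 array and 0.16 on the null-Cy3 array, with a mean of 0.24 (SD 0.11). Prtn3, the gene of proteinase 3, stood at 0.0036 and 0.54, with a mean of 0.27 (SD 0.38), so that its value came almost wholly from the null-Cy3 array. Elane, the gene of neutrophil elastase, stood at 0.05 and 0.13, with a mean of 0.09 (SD 0.06). Ctsg, the gene of cathepsin G, stood at 0.05 and 0.11, with a mean of 0.08 (SD 0.04). Elane and Ctsg lay at or below 0.13 on both arrays, and their ranges overlapped those of each other and of Ltf. The range of Prtn3 overlapped those of all 5 other genes that were not called.

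**Figure D2:**
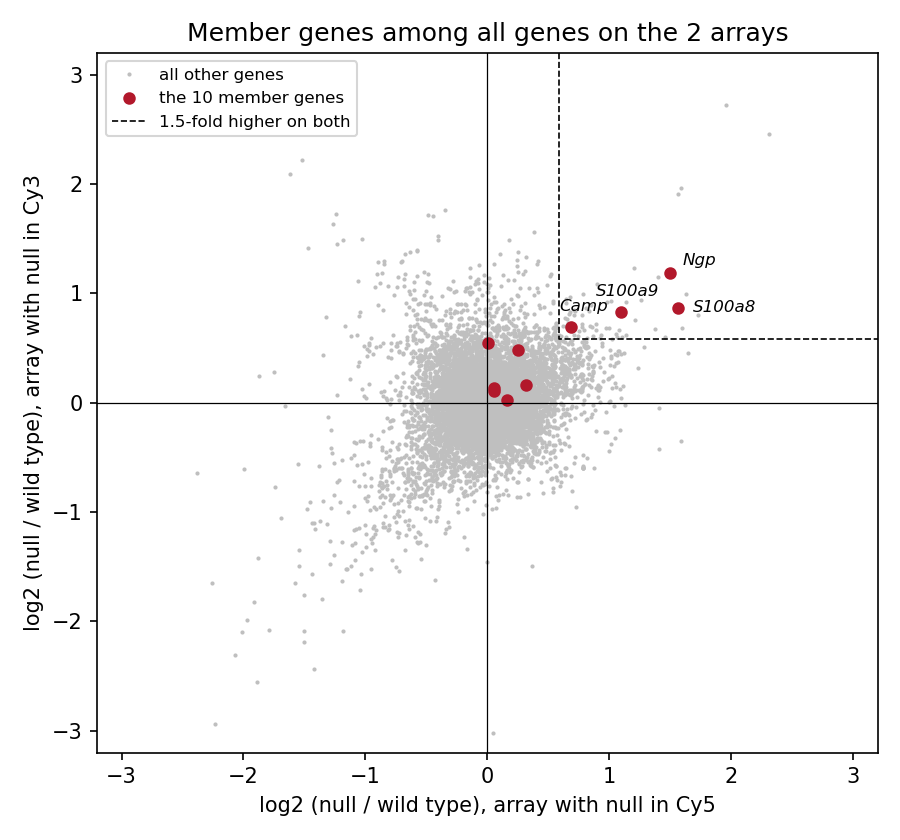
Log2 ratio of null over wild type of each gene on the null-Cy5 array (x axis) and on the null-Cy3 array (y axis). Red points are the 10 genes, grey points all other genes, and the dashed corner bounds genes at least 1.5-fold higher on both arrays. Ngp, S100a8, S100a9 and Camp lie inside the corner, among 68 such genes, and the other 6 lie near the mass of grey points.

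The spread between dyes bears on these values. A dye term, taken as the null-Cy5 minus the null-Cy3 ratio divided by 2, also holds noise. Over all genes its SD was 0.18, against 0.22 for the mean ratio. For S100a8 the dye term was 0.35, for Ngp 0.15, for S100a9 0.13 and for Camp -0.00090. By the same size rule, 0.436% of all genes went opposite ways on the 2 arrays, and none of the 10 did. Since the 10 genes were chosen with both ratios known, nothing is read from that.

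Other genes of neutrophils were read from lists of primary granule, specific granule, receptor and oxidase genes. Of 55 listed, 45 were measured, and their median was -0.01. By the rule, 0 of these were higher and 2 lower, beside 0.412% and 1.11% of all genes. Since the 10 genes were chosen with their ratios known, nothing is read from how they compare with the 45. None of these 45 reached the mean of Camp, and 1, Fpr2, reached that of Lcn2. The listed genes without a value included Ly6g, Retnlg, Olfm4 and Fpr1. Fpr2, a receptor for formylated peptides, stood at 0.53 and 0.24 with a mean of 0.38 (SD 0.20). Of the 45, 10 lay above and 14 below 0 on both arrays, beside 25.0% of all genes each way. Of the 17 surface receptors of neutrophils measured, 5 lay above and 5 below 0 on both arrays. Among these 17, Cxcr2, the receptor for neutrophil chemokines, stood at 0.10 and -0.07. Csf3r, the receptor for granulocyte colony-stimulating factor, stood at -0.10 and 0.11. Itgam, the alpha chain of the integrin Mac-1, stood at 0.0040 and 0.14. The granule genes Mmp8 (mean 0.08, SD 0.07), Fcnb (0.06, SD 0.01), Bpi (0.07, SD 0.12), Chil3 (0.06, SD 0.03) and Cd177 (0.10, SD 0.17) did not pass the rule, nor did Srgn (-0.40, SD 0.41), Chil1 (-0.38, SD 0.23), Adam8 (-0.36, SD 0.03) and Pglyrp1 (-0.23, SD 0.10). The 2 lower genes were Anxa1, an annexin that limits neutrophil recruitment, at -0.80 (SD 0.09), and Itgb2, the beta chain shared by leukocyte integrins, at -0.73 (SD 0.10). Both are also made by lymphocytes and other cells. Of the oxidase genes, Ncf4 lay below 0 on both arrays, at -0.59 and -0.38, and Cyba went 1.5-fold opposite ways on the arrays, at -0.78 and 0.62.

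**Figure D3:**
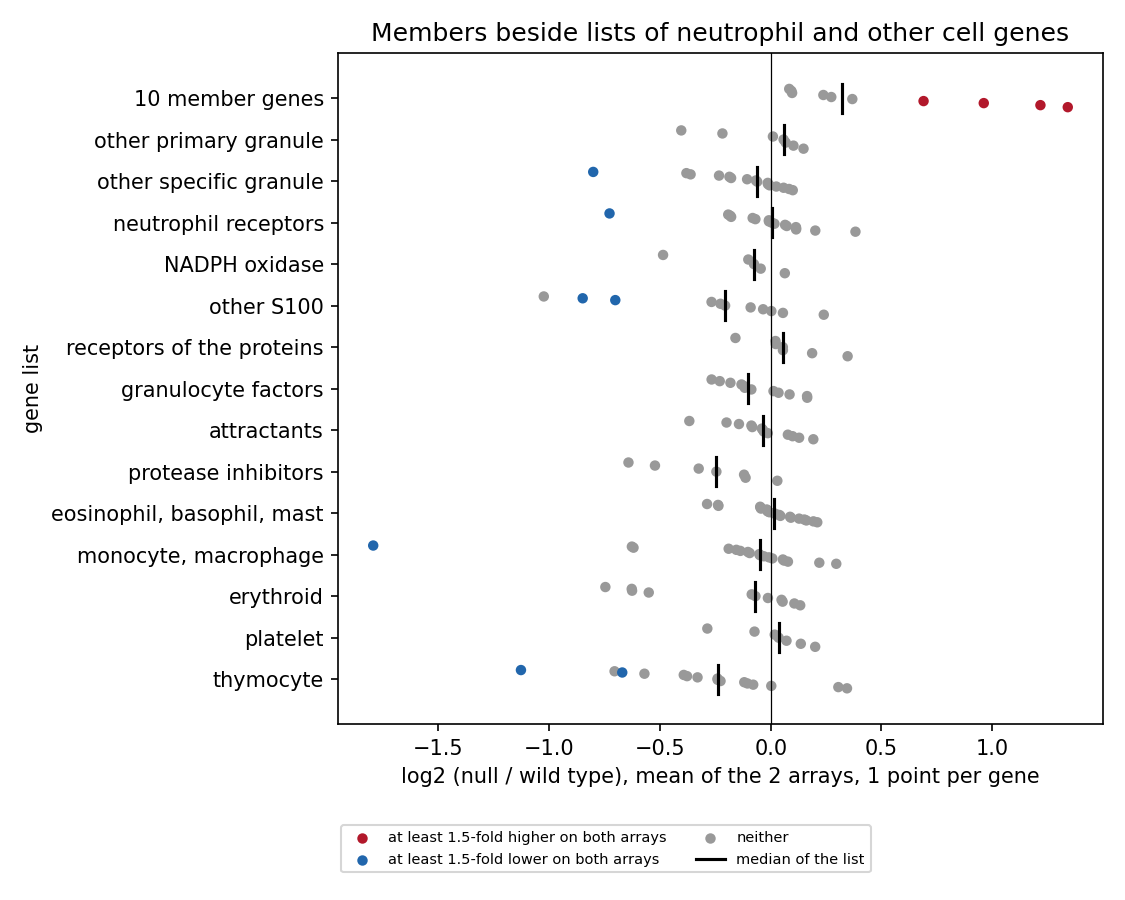
Mean log2 ratio of null over wild type over the 2 arrays (x axis) for each measured gene of the 10 genes and of 14 lists (y axis). Red and blue points passed the 1.5-fold rule as higher and lower, grey points did not, and vertical bars are list medians. Red points appear in the row of the 10 genes, and the list medians lie between -0.25 and 0.06.

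None of the transcription factors, attractants, protease inhibitors and receptors read next passed the rule, beside 0.412% of all genes higher and 1.11% lower. With lists this short, nothing is read from that. Of 14 transcription factors of granulocyte development, 12 were measured with a median of -0.10. Spi1, which encodes PU.1, stood at -0.12 on each array, Gfi1, a repressor needed for neutrophil formation, had a mean of -0.12 (SD 0.08), and Cebpa, a factor of early granulocyte fate, 0.04 (SD 0.20). Of 13 measured attractants and growth factors (median -0.03), Cxcl1 had a mean of -0.03 (SD 0.08), Cxcl2 -0.08 (SD 0.13) and Csf3, the granulocyte growth factor, -0.04 (SD 0.19). Il17a, a cytokine that raises neutrophil supply, stood at 0.35 and -0.15, on opposite sides of 0. Of 7 genes of inhibitors of neutrophil proteases and related proteins (median -0.25), none passed the rule. Among these 7, 6 lay below 0 on both arrays, as did 25.0% of all genes. Serpinb1a, an inhibitor of elastase, proteinase 3 and cathepsin G, stood at -0.83 and -0.45, short of 1.5-fold on the null-Cy3 array. Of 7 receptors described for calprotectin, lipocalin 2 and lactoferrin, none passed the rule. Tlr4, a receptor for calprotectin, had a mean of 0.05 (SD 0.07) and Ager, another, 0.19 (SD 0.07). Bsg, described as a receptor of S100a9 protein, stood at -0.48 and 1.18 and so gave no direction.

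Of 11 other S100 genes measured, 0 were higher and 2 were lower, beside 0.412% and 1.11% of all genes, and their median was -0.21. S100a3 lay above 0 on both arrays, at 0.25 and 0.23, and did not pass the rule. S100a10, whose protein pairs with annexin A2, stood at -0.84 and -0.86, with a mean of -0.85 (SD 0.01). S100a6, a calcium-binding protein of many cell types, stood at -0.68 and -0.72, with a mean of -0.70 (SD 0.03), or 1.63-fold lower. S100a11 stood at -0.43 and -1.62 and passed on 1 array only. S100a6 is the nearest measured gene to S100a8 on one side and S100a9 the nearest on the other, in the gene order of chromosome 3 on GRCm38.p6. Adjacent measured genes thus had ratios of opposite direction there, with the calprotectin pair higher and S100a6 lower on both arrays. The measured S100 genes from S100a1 to S100a5 in that order had means between -0.27 and 0.24, with single-array values from -0.43 to 0.25.

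**Figure D4:**
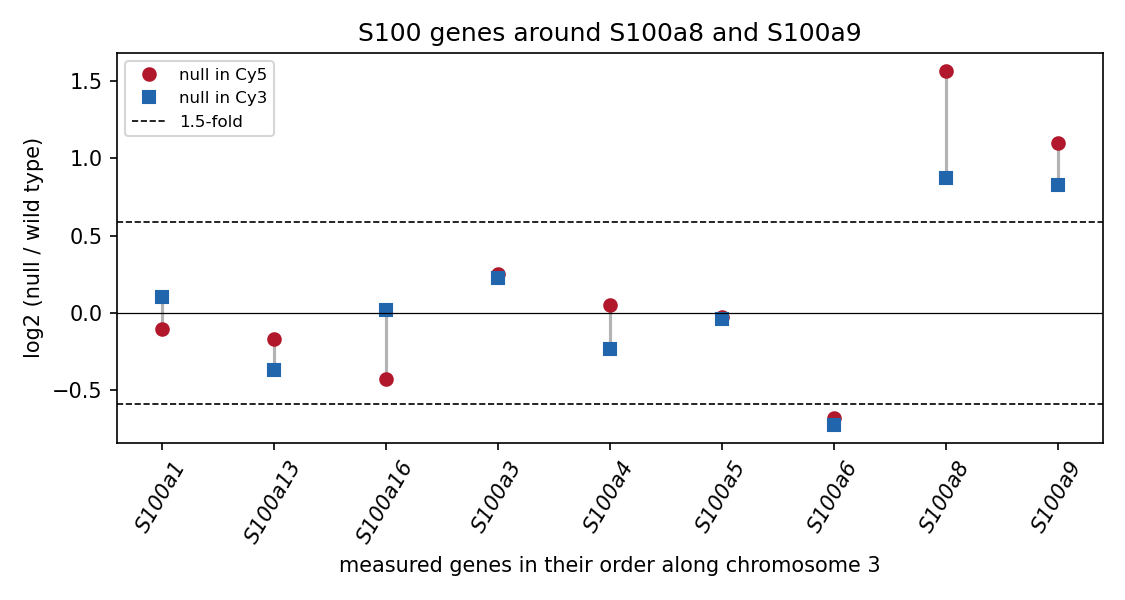
Log2 ratio of null over wild type (y axis) of 9 measured S100 genes in their order along chromosome 3 (x axis, equal steps). Circles show the null-Cy5 array, squares the null-Cy3 array, and dashed lines 1.5-fold in each direction. S100a8 and S100a9 lie above the upper line and S100a6 below the lower line on both arrays.

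Measured neighbours of the 10 genes, up to 3 on each side, were read in the same way, leaving out neighbours that are themselves among the 10, such as S100a9 beside S100a8. Of the 48 others, 0 were higher and 3 were lower, beside 0.412% and 1.11% of all genes. The 3 were S100a6, Map4 near Camp and Fam102a near Lcn2. Means of all 48 ran from -1.04 to 0.59. Ngp, Camp and Ltf lie on chromosome 9, but no one of them is within 3 measured genes of another. Elane and Prtn3 are adjacent on chromosome 10, and neither passed the rule. Ctsg lies on chromosome 14 beside the mast cell and granzyme proteases. Its neighbours Mcpt8 and Gzme stood at -0.01 and 0.0037. Epx, the eosinophil peroxidase gene near Mpo on chromosome 11, stood at 0.21 (SD 0.06).

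Markers of other cell types were set beside these values. By the rule, 0.412% of all genes were higher and 1.11% lower. On both arrays, 25.0% of all genes lay above 0 and 25.0% below. Of 21 eosinophil, basophil and mast cell markers, 0 passed the rule in either direction, and their median was 0.01. Of 18 monocyte and macrophage markers (median -0.05), 0 were higher, and F13a1, a coagulation factor subunit, was lower at -1.79 (SD 0.41). Lyz2, the lysozyme gene shared by macrophages and neutrophils, stood at -0.96 and -0.30. Ly6c2, which marks inflammatory monocytes, had a mean of -0.62 (SD 0.09) and did not pass the rule. Of the same list, Cd163, a scavenger receptor of macrophages, stood at 0.30 and 0.29, and Mrc1, the mannose receptor, at 0.41 and 0.02. In all, 3 of the 18 lay above and 7 below 0 on both arrays. The 11 erythroid markers had a median of -0.07. Hba-a1, an alpha globin gene and the lowest of them by mean, stood at -0.34 and -1.16. Both arrays put 5 erythroid markers under 0, Hba-a1 among them. Slc4a1 (0.19 and 0.08) and Rhag (0.20 and 0.01) were the 2 over 0 on each array. The 7 platelet markers had a median of 0.04. Neither list held a gene that passed the rule. Of 16 thymocyte markers (median -0.24), 2 were lower, namely Rag1 at -1.13 (SD 0.53) and Cd4 at -0.67 (SD 0.01). Of the 16, 10 lay below and 2 above 0 on both arrays, among the latter Thy1 at 0.32 and 0.37. The part of any of these cell types in the ratios of the 10 genes was not tested.

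Among genes on none of the lists, those with the pair of array values nearest to Ngp were Stra8, Phlda1, Nme4, Myc and 4930451G09Rik, at distances of 0.10 to 0.44 in log2 over the 2 arrays. Those nearest to S100a8 were Phlda1, 4930451G09Rik, Fgfr1, 3110082I17Rik and Hsp90aa1, at distances of 0.14 to 0.28. With 1 pair of pools, these are genes of like size of ratio, and the 2 arrays hold no pattern over conditions.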

How the data were processed

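Two-colour Agilent arrays compared 1 pool of thymocyte RNA from 3 null mice with 1 pool from 3 wild-type mice, with the dyes exchanged on the second array. Per the submitters' processing notes, the scans went through Agilent Feature Extraction 7.1, and per the series' design text at default settings. The authors deposited log ratios, here taken as log10, the convention of that software, since no source used here names the base. Multiplication gave log2 values.

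The deposited log10 columns had medians of -0.00141 (null-Cy5 array) and 0.00112 (null-Cy3 array). Centring by the submitters is unknown, and none was added. The null-Cy5 column writes its 80 zeros as 0, and the null-Cy3 column its 82 zeros as -0, so the latter was read as already multiplied by -1. Scale and direction are thus inferred.

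Of 22393 features, 18218 had 1 gene symbol in the platform annotation, 16 several and 4159 none; the last 2 groups entered no gene. For 18175 features, symbols were updated by gene ID through RefSeq on GRCm38.p6, and features of a gene were averaged. No source used here names the array's build. The targeted gene is not reported here.

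No test was possible with 1 pool per genotype. The number of arrays limits the technical precision, and having 1 pool per genotype limits what can be said of genotype. The 10 genes, the 14 lists (168 of 200 listed genes measured) and the rules were chosen with earlier results of these data known. Genes named are the 10, list members past 1.5-fold on both arrays, list members whose role relates to one of the 10, and the 5 genes nearest to Ngp and to S100a8. Neighbouring genes and other listed genes given as examples, such as Map4, Fam102a, Epx, Gzme, Lyz2, Ly6c2, Hba-a1, Cd163, Mrc1, Thy1, Fpr2, Ncf4 and Cyba, were picked after their values were seen. Alternatives were centring, each array alone, the largest or the median feature, log base, the sign of the second column, other thresholds and platform symbols. Python 3.11.15, numpy 2.4.6, pandas 2.3.3 and matplotlib 3.10.9 were used.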

Additional observations from a re-analysis of the deposited data

How the results depend on the processing

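No paired analysis was possible because both arrays carry 1 pair of pools. Over the arrays taken singly, the median of the 10 genes ranged from 0.29 to 0.51 and the number higher was 4 on each, while all genes higher ranged from 381 to 482 and lower from 407 to 442. Centring moved none of the 10 genes, their median or the 14 list medians by over 1 SD between arrays. Taking the largest or the median feature could not move the 10 genes, which have 1 feature each. The number of the 10 genes higher was also 4 at the looser of the other fold thresholds tried, by the mean of the arrays and with platform symbols. At 2-fold on both arrays it was 1, with 7 genes of all higher and 43 lower. At the looser threshold, 378 of all genes were higher and 479 lower, and by the mean of the arrays 188 and 285. Read as log2, the deposited values gave a median of 0.10 for the 10 genes, 0 of them higher, and 2 higher and 4 lower of all genes. With the second column turned, the median was 0.034, 0 of the 10 were higher, and 16 of all genes were higher and 56 lower. Camp (-0.00090), Lcn2 (-0.11), Prtn3 (-0.27), Elane (-0.04) and Ctsg (-0.03) then fell below 0. This reading takes the difference of the arrays, so each mean and call over both arrays depends on how that column is read. The null-Cy5 array taken singly does not use that column, and its direction is inferred from its dye labels. Without intensities, signal over background is unknown, and ratios of weakly expressed genes cannot be told from those of genes not expressed.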
